A study of Mus musculus with 8 samples.

Results

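The skeletal myosin heavy chain isoforms were followed in RNA-seq libraries of mouse cortical bone. The 6 genes *Myh4*, *Myh1*, *Myh2*, *Myh7*, *Myh3* and *Myh8* were taken by symbol from a count table of 19201 genes, and all 6 were found. The series compared 4 libraries of *Prx1Cre; Piezo1fl/fl* bone, called *Piezo1*-deficient here, with 4 libraries of WT bone, all from 6-week-old mice on the C57BL/6J strain. Both genotypes carried replicate numbers 1, 3, 4 and 5. The Prx1 enhancer drives Cre in early limb bud mesenchyme, the source of limb bone and connective tissue, and the floxed *Piezo1* encodes a mechanically gated cation channel. The bones were ground whole in liquid nitrogen, so each library holds the RNA of every cell type that stayed on the bone. The labels do not say that each library came from a separate animal, and p-values measure the spread between these libraries only.

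Myosin heavy chain is the motor subunit of the muscle thick filament, and a muscle fibre is typed by the isoform it makes. *Myh4*, *Myh1* and *Myh2* encode the fast chains of type IIb, IIx and IIa fibres, and *Myh7* encodes the chain of slow type I fibres and of the heart ventricle. *Myh3* and *Myh8* encode the embryonic and perinatal chains, which are made in developing and regenerating fibres and are largely replaced by adult chains after birth. Osteoblasts and osteocytes rely on non-muscle myosins.

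Library totals ran from 12090403 to 13841709 counts in *Piezo1*-deficient bone and from 11963536 to 14536106 in WT bone. Values are given as counts and as CPM, which are counts divided by the TMM-adjusted library total of edgeR and brought to a common scale. *Piezo1* itself lay between 131 and 146 CPM in *Piezo1*-deficient bone, against 194 to 214 CPM in WT bone (log2 fold change -0.57, SE 0.06, adjusted p = 0.0027, edgeR). In the whole table, 313 of 15318 tested genes were called higher in *Piezo1*-deficient bone (2.04%) and 149 lower (0.973%) at an adjusted p under 0.05. The median log2 fold change of the tested genes was 0.005.

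All 3 fast chains and the slow chain rose in *Piezo1*-deficient bone, by 15.1- to 32.6-fold. The 4 that passed the low-count filter were called higher and none lower, beside a background of 2.04% higher and 0.973% lower. *Myh3* and *Myh8* were too sparse for the filter. A gene that passes the filter only through its high group had to differ, and the count of 4 is given as a description. In 5 of the 6 genes every *Piezo1*-deficient library lay above every WT library, an arrangement found in 6.17% of the genes of the table. In RNA from whole bone, fewer cells of a type and less RNA per cell cannot be told apart.

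**Figure D1:**
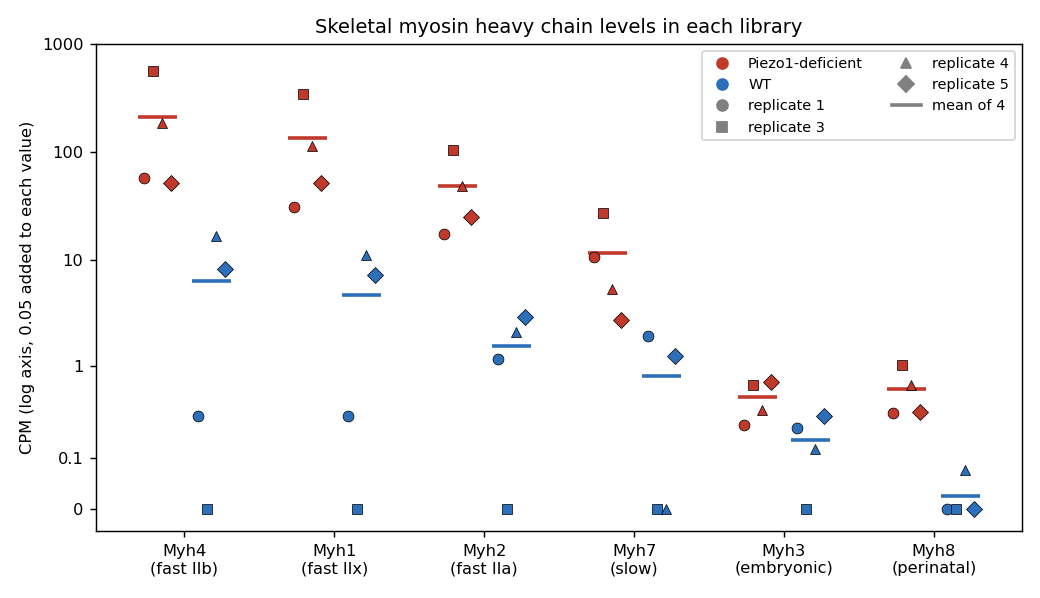
CPM of each myosin heavy chain gene in each library, on a log axis with 0.05 added so that values of 0 can be drawn. Points are single libraries, shaped by replicate number, with *Piezo1*-deficient bone in red on the left of each gene and WT bone in blue on the right, and lines are means of 4. *Myh4* spans 51.8 to 560 CPM in *Piezo1*-deficient bone and 0 to 16.9 CPM in WT bone.

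*Myh4*, the fast IIb chain, had 686, 7584, 2529 and 596 counts in *Piezo1*-deficient replicates 1, 3, 4 and 5, against 4, 0, 261 and 106 counts in the WT libraries of the same numbers. Replicate 3 was by far the highest *Piezo1*-deficient library, replicate 3 of WT held no count, and the groups did not overlap. The mean was 214 ± 239 CPM in *Piezo1*-deficient bone and 6.37 ± 8.0 CPM in WT bone (SD, n = 4 each). In edgeR this was a log2 fold change of 5.03 with an SE of 1.08 (adjusted p = 0.0352), which ranked 4 among the 15318 tested genes.

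*Myh1*, the fast IIx chain, had 367, 4678, 1565 and 594 counts in *Piezo1*-deficient bone and 4, 0, 174 and 94 counts in WT bone. The order of libraries followed that of *Myh4* except that *Piezo1*-deficient replicates 1 and 5 changed places. Means were 136 ± 144 CPM in *Piezo1*-deficient bone and 4.73 ± 5.52 CPM in WT bone (SD, n = 4 each). In edgeR this was a log2 fold change of 4.8 with an SE of 0.98 (adjusted p = 0.0298).

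*Myh2*, the fast IIa chain, had 205, 1409, 669 and 290 counts in *Piezo1*-deficient bone and 15, 0, 33 and 38 counts in WT bone. It varied less among the *Piezo1*-deficient libraries than the other fast chains: its highest library was 6.0 times its lowest, against 10.8 times for *Myh4* and 11.1 times for *Myh1*. Means were 48.9 ± 39.1 CPM in *Piezo1*-deficient bone and 1.57 ± 1.28 CPM in WT bone (SD, n = 4 each). In edgeR this was a log2 fold change of 4.96 with an SE of 0.71 (adjusted p = 0.00673).

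The slow chain *Myh7* was lower in level than each fast chain and followed a different order of libraries. It had 126, 374, 73 and 32 counts in *Piezo1*-deficient bone and 25, 0, 0 and 16 counts in WT bone. *Piezo1*-deficient replicate 1 stood next after replicate 3 here, although it was among the 2 lowest *Piezo1*-deficient libraries for each fast chain, and WT replicate 1 was the highest WT library. Means were 11.6 ± 11.2 CPM in *Piezo1*-deficient bone and 0.802 ± 0.971 CPM in WT bone (SD, n = 4 each). In edgeR this was a log2 fold change of 3.92 with an SE of 0.92 (adjusted p = 0.0476). The lowest *Piezo1*-deficient library was 1.42 times the highest WT library, the narrowest gap of these 4 genes. In a library with no count, the limit that a count of 0 allows was 3 counts, or 0.218 CPM in WT replicate 3 and 0.194 CPM in WT replicate 4.

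The developmental chains were close to the limit of detection in both genotypes. *Myh3*, the embryonic chain, had 3, 9, 5 and 8 counts in *Piezo1*-deficient bone and 3, 0, 2 and 4 counts in WT bone. Its groups overlapped in CPM (exact two-sided permutation p = 0.0571), and its pooled counts of 25 against 9 gave a ratio of 3.01 (95% interval 1.36 to 7.32, counting error only). *Myh8*, the perinatal chain, had 4, 14, 9 and 4 counts in *Piezo1*-deficient bone and 0, 0, 1 and 0 counts in WT bone. Its groups did not overlap, and the pooled counts of 31 against 1 gave a ratio of 33.6 (5.60 to 1368). The same permutation test gave p = 0.0286 for *Myh8* and for each of the 4 tested chains, which is the smallest value that 4 against 4 libraries allow. These are 6 tests, with p-values as computed.

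Of the 4 calls, only that of *Myh2* held in all 15 alternatives run, with adjusted p up to 0.0311 (edgeR or DESeq2). *Myh4*, *Myh1* and *Myh7* each lost their call when any one of *Piezo1*-deficient replicate 3 or 4 or WT replicate 1, 3, 4 or 5 was left out, which left 1 member called each time. Adjusted p then reached 0.122 for *Myh4*, 0.0999 for *Myh1* and 0.139 for *Myh7* (edgeR). The direction stayed positive throughout. Without replicate 3 of both genotypes, a setting chosen after seeing the data, the log2 fold changes were 3.50 for *Myh4*, 3.35 for *Myh1*, 3.86 for *Myh2* and 2.60 for *Myh7*, and *Myh2* alone was called (edgeR).

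Shares within a library do not depend on how much myosin heavy chain RNA the library holds. The 6 genes together held 1391, 14068, 4850 and 1524 counts in *Piezo1*-deficient replicates 1, 3, 4 and 5, against 51, 0, 471 and 258 counts in the WT libraries. WT replicate 3 therefore has no shares, and WT shares rest on 3 libraries, of which replicate 1 has few counts. Intervals below are Wilson 95% intervals and cover counting error only.

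Fast chains made up 90.4, 97.2, 98.2 and 97.1% of the counts in *Piezo1*-deficient bone, against 45.1, 99.4 and 92.2% in WT replicates 1, 4 and 5. In every library with counts except WT replicate 1, *Myh4* was the leading isoform and *Myh1* came next. *Myh4* took 49.3, 53.9, 52.1 and 39.1% in *Piezo1*-deficient bone, against 7.84, 55.4 and 41.1% in WT bone. *Myh1* took 26.4, 33.3, 32.3 and 39.0% in *Piezo1*-deficient bone, against 7.84, 36.9 and 36.4% in WT bone. *Myh2* was the least of the fast chains in every *Piezo1*-deficient library, at 14.7, 10.02, 13.8 and 19.0%, against 29.4, 7.01 and 14.7% in WT bone.

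The slow share was 9.06, 2.66, 1.51 and 2.10% in *Piezo1*-deficient bone. In WT replicates 1, 4 and 5 it was 49.0% (interval 35.9 to 62.3), 0% (0 to 0.809) and 6.2% (3.85 to 9.84). *Piezo1*-deficient replicate 1 lay above the other *Piezo1*-deficient libraries by more than counting error, with an interval of 7.66 to 10.7%. The developmental chains took 0.503, 0.163, 0.289 and 0.787% in *Piezo1*-deficient bone, against 5.88, 0.637 and 1.55% in WT bone, where they rest on 3, 3 and 4 counts.

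**Figure D2:**
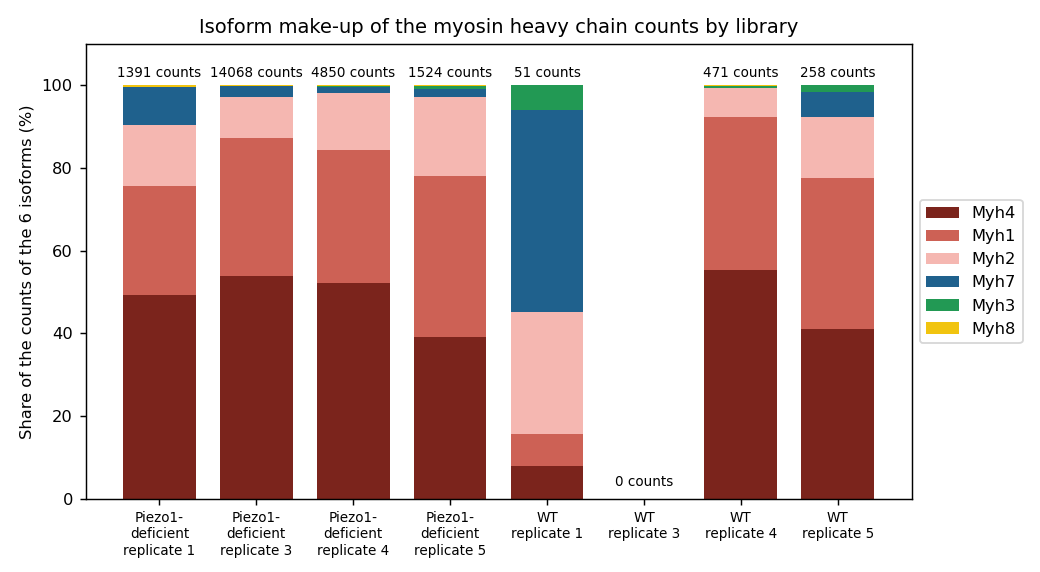
Share of each isoform in the summed counts of the 6 genes, in percent, with 1 bar per library, *Piezo1*-deficient bone on the left and WT bone on the right; the number above each bar is its summed count. Fast chains, in reds, fill 90.4 to 98.2% of the *Piezo1*-deficient bars, and WT replicate 1, with 51 counts, has the only bar in which *Myh7* is the largest part.

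No share differed between the genotypes beyond its spread. The *Myh4* share averaged 48.6 ± 6.62% in *Piezo1*-deficient bone (n = 4) and 34.8 ± 24.4% in WT bone (n = 3), with an exact two-sided permutation p of 0.514. Exact p was 0.743 for *Myh1* and *Myh2*, 0.514 for *Myh7*, 0.114 for *Myh3* and 0.171 for *Myh8*. With 4 against 3 libraries the test cannot go below 0.0571, and the WT spread is wide, so these values do not show that the shares were alike. Without WT replicate 1 the mean difference turned round for *Myh1*, *Myh2* and *Myh7*, to -3.97, 3.53 and 0.730 percentage points, and that of *Myh4*, 13.8 points with all libraries, was 0.37 points. Dividing by coding length moved no share by more than 0.0813 points, since the coding parts are 5808 to 5829 bases long.

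The balance of the 2 leading fast chains varied within a genotype. *Myh4* counts were 1.87, 1.62, 1.62 and 1.00 times those of *Myh1* in *Piezo1*-deficient bone, against 1.00, 1.5 and 1.13 times in WT replicates 1, 4 and 5. *Piezo1*-deficient replicate 5, with an interval of 0.894 to 1.13, stood below the other libraries of its genotype. The interval of *Piezo1*-deficient replicate 1, 1.64 to 2.13, overlapped those of replicates 3 (1.56 to 1.68) and 4 (1.52 to 1.72). The ratios of replicates 3 and 4 lay just below it, and overlap of intervals does not settle whether replicate 1 differed. These are exact 95% intervals of the counts.

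The fast and developmental chains lie with *Myh13* on the plus strand of chromosome 11. Their order is *Myh3*, *Myh2*, *Myh1*, *Myh4*, *Myh8* and *Myh13*, with the fast chains next to each other. *Myh7* lies on the minus strand of chromosome 14 beside *Myh6* (RefSeq, GRCm38.p6). *Myh4* spans chr11:67237812-67260447, *Myh1* chr11:67200102-67224577 and *Myh2* chr11:67171027-67197517. Because these 3 genes moved together across the libraries, the 250 bases before each RefSeq start are shown, read 5′ to 3′ on the plus strand. Capitals mark a run of 20 bases held by all 3 windows and, where present, the letters TATAAA.
*Myh4*, chr11:67237562-67237811: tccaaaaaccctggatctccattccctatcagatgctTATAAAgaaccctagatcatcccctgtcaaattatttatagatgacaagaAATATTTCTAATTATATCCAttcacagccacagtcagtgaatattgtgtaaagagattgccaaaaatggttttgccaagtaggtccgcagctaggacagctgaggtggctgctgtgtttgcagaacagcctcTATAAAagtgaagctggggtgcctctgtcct
*Myh1*, chr11:67199852-67200101: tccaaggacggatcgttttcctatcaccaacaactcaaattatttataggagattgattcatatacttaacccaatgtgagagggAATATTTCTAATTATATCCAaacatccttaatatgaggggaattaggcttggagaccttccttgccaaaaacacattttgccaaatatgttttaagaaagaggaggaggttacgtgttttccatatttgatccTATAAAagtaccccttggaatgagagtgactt
*Myh2*, chr11:67170777-67171026: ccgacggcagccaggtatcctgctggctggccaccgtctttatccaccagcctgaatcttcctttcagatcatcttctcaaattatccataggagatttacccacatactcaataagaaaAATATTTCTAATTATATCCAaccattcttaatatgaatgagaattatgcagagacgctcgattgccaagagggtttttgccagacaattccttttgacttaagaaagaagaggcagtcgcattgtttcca

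The shared run lies at position -163 from the start of *Myh4*, -165 from that of *Myh1* and -130 from that of *Myh2*. The run was picked as the longest string common to these windows, so its presence in them was fixed in advance. Searched on both strands, it was found in 3 of 32841 RefSeq windows of this length (0.00913%), the windows of these genes. This exact search does not count near copies, such as the one in the window of *Myh8*. TATAAA, searched on the gene's strand, was found in 7.59% of all windows, among them those of *Myh4*, *Myh1* and *Myh3*. The E-box CANNTG, the letters bound by myogenic regulators, was in 66.2% of windows on either strand, and in those of *Myh4*, *Myh7*, *Myh3* and *Myh8* among the members. The MEF2 site was in 2.92% of windows, including those of *Myh4*, *Myh1* and *Myh8*. Such matches describe letters and were not tied to the levels measured here.

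The coding parts are also alike, which bears on how reads can be told apart. The first 60 coding bases of the fast chains, from GENCODE M1 transcripts on NCBIM37, are shown with capitals where a base differs from *Myh4*.
*Myh4*: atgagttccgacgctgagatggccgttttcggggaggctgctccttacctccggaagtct
*Myh1*: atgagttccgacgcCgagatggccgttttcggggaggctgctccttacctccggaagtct
*Myh2*: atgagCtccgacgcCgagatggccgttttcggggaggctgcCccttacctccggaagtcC

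*Myh1* differed from *Myh4* at 1 of these bases and *Myh2* at 4. Over the whole coding part, *Myh4* and *Myh1* were 90.1% identical and *Myh1* and *Myh2* 91.0%, with a longest identical run of 268 bases between *Myh1* and *Myh2*. *Myh7* was 77.3% identical to *Myh4* and 91.4% identical to *Myh6*, the atrial alpha chain. Of the 50-base windows of the transcript, 18.9% for *Myh4*, 26.7% for *Myh1*, 26.9% for *Myh2*, 22.2% for *Myh7*, 21.4% for *Myh8* and 4.81% for *Myh3* were found unchanged in another heavy chain gene. With windows of 100 bases, the values were 3.85% for *Myh4*, 9.73% for *Myh1*, 9.17% for *Myh2*, 11.2% for *Myh7*, 6.61% for *Myh8* and 1.15% for *Myh3*. The extent thus depends on read length. How reads in such windows were counted is not given in the sources used here. The split among the fast chains, that between *Myh7* and *Myh6*, and the few *Myh8* counts are uncertain to that extent.

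**Figure D3:**
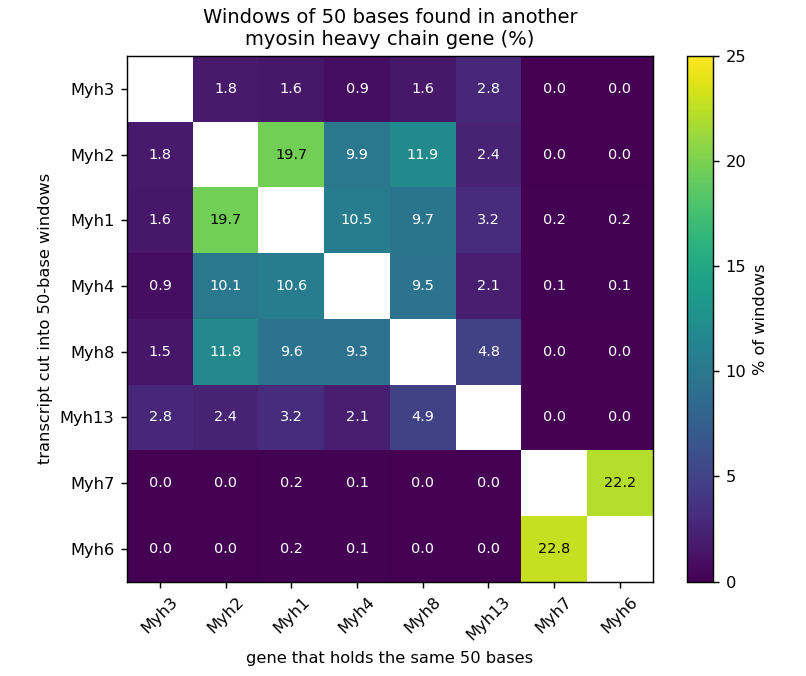
Percentage of the 50-base windows of each heavy chain transcript (rows) that occur unchanged in another heavy chain gene (columns). The highest values are between *Myh7* and *Myh6* and between *Myh1* and *Myh2*, and the fast chains share almost none with *Myh7*.

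Within genotypes the fast chains varied together. For deviations of log2(CPM + 0.5) from the genotype mean over the 8 libraries, Pearson's r was 0.99 between *Myh4* and *Myh1*, 0.87 between *Myh4* and *Myh2*, and 0.22 between *Myh4* and *Myh7*. These points share library depth and, for the fast chains, similar sequence, and the values are descriptions. By the same measure, the genes most like the summed fast chains were *Kantr*, *Csgalnact2*, *Acta1*, *Tnnc2* and *Tm9sf2*, with r of 0.98, 0.98, 0.98, 0.98 and 0.97. Of these, *Acta1*, skeletal muscle actin, and *Tnnc2*, fast troponin C, were called higher, with log2 fold changes of 4.92 and 4.66 (adjusted p = 0.0253 and 0.0293, edgeR). Those most like *Myh7* were *Pde10a*, *Metrnl*, *Aqp11*, *Pgap1* and *Nudcd1*, with r from 0.96 to 0.99, of which *Metrnl* was called (log2 fold change 0.34, adjusted p = 0.0405, edgeR). Both sets are the highest r among all tested genes outside the members. Picking the highest of so many over 8 libraries gives high r by itself.

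The other genes of the sarcomere were set beside the heavy chains in lists. All 10 fast fibre partners, such as fast troponins, light chains and the calcium pump *Atp2a1*, were called higher, beside a background of 2.04%. Their median log2 fold change was 4.48. Some were near 0 in WT libraries, such as *Tnnc2* with 9 and 1 counts in WT replicates 1 and 3. A gene that passes the filter only through its high group had to differ, so this count and those of the lists below are descriptions. *Tnnt3*, fast troponin T, averaged 222 ± 242 CPM in *Piezo1*-deficient bone and 8.60 ± 9.01 CPM in WT bone (log2 fold change 4.66, adjusted p = 0.0312, edgeR). *Mylpf*, the fast regulatory light chain, averaged 196 ± 196 CPM in *Piezo1*-deficient bone and 11.3 ± 7.98 CPM in WT bone (log2 fold change 4.11, adjusted p = 0.0251, edgeR). This count depended on single libraries: it was 5 without *Piezo1*-deficient replicate 3, 1 without *Piezo1*-deficient replicate 4 or WT replicate 1, 3 without WT replicate 4, and 0 without WT replicate 3 or 5 or without replicate 3 of both genotypes.

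Fast heavy chain counts per 100 counts of the fast partners were 34.0, 33.9, 27.2 and 44.2 in *Piezo1*-deficient bone, against 7.26, 0, 25 and 27.9 in WT bone. WT replicates 4 and 5 thus lay at or near the *Piezo1*-deficient values, and WT replicates 1 and 3 lay below them. In WT replicate 3, which held no heavy chain count, *Tnnc2*, *Pvalb* and *Myl1* had 1, 1 and 2 counts, while *Mylpf*, *Tnni2*, *Mybpc2* and *Actn3* had 71, 46, 45 and 35.

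**Figure D4:**
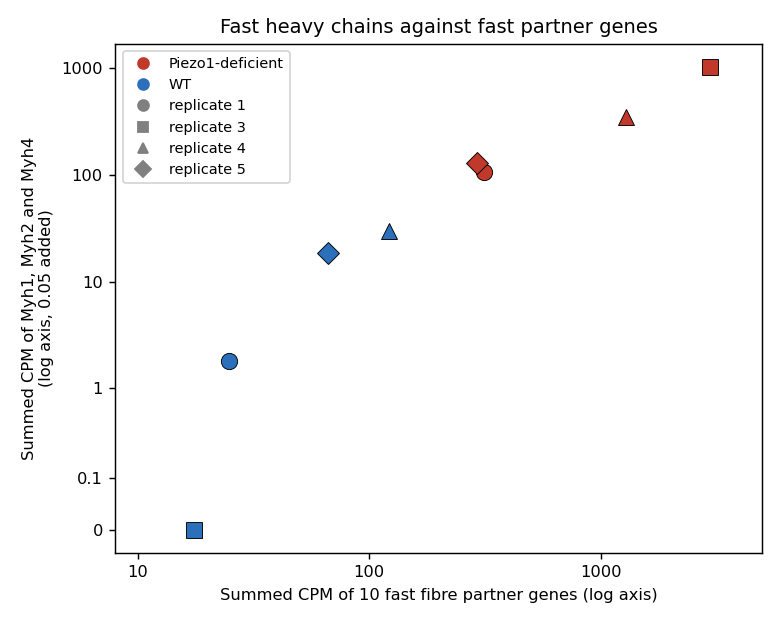
Summed CPM of *Myh1*, *Myh2* and *Myh4* (log axis, 0.05 added) against the summed CPM of 10 fast fibre partner genes (log axis) in each library, *Piezo1*-deficient bone in red and WT bone in blue. The *Piezo1*-deficient libraries lie between 291 and 2979 CPM of the partners and the WT libraries between 17.4 and 121 CPM.

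Of 9 tested slow fibre partners, 4 were called higher and none lower, beside the background of 2.04% higher and 0.973% lower. The median log2 fold change of the 9 was 1.88. *Mybpc1*, slow myosin binding protein C, averaged 35.3 ± 32.5 CPM in *Piezo1*-deficient bone and 1.17 ± 1.07 CPM in WT bone (log2 fold change 4.86, adjusted p = 0.0137, edgeR). *Tnnt1*, slow troponin T, averaged 6.98 ± 3.75 CPM in *Piezo1*-deficient bone and 1.72 ± 0.446 CPM in WT bone (log2 fold change 2.01, adjusted p = 0.0175, edgeR). Counts without 1 library were 7 without *Piezo1*-deficient replicate 1, 2 without WT replicate 1, 1 without WT replicate 3 or 4, and 0 without WT replicate 5. The 5 genes not called included the most abundant of the list, *Tpm3* and *Atp2a2*. These had 2824 and 2041 counts in WT replicate 3, which held no heavy chain count, so they say little about slow fibres. Their log2 fold changes were -0.05 and 0.05 (adjusted p = 0.720 and 0.777, edgeR), while 8 of the 9 tested had one above 0.

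Of the 3 developing fibre genes tested, *Actc1*, the actin of heart and of developing muscle, was called higher, at 10.1 ± 10.7 CPM in *Piezo1*-deficient bone and 0.314 ± 0.530 CPM in WT bone (log2 fold change 4.85, adjusted p = 0.033, edgeR). That call was lost without *Piezo1*-deficient replicate 3 or 4 or any WT library, leaving 0. The other 2 were not called. *Myl4* went the other way, at 12.4 ± 4.83 CPM in *Piezo1*-deficient bone and 19.6 ± 3.03 CPM in WT bone (log2 fold change -0.66, adjusted p = 0.168, edgeR). *Ncam1* had a log2 fold change of 0.25 (adjusted p = 0.467, edgeR). With the replicate block, 1 gene of this list was called lower. For 7 tested genes of thick filament assembly and turnover, the median log2 fold change was 2.68. Beside the background of 2.04% higher and 0.973% lower, 4 of them were called higher and none lower. They included *Myom2*, an M-band protein, at a log2 fold change of 4.18 (adjusted p = 0.0286, edgeR). That count fell to 1 without *Piezo1*-deficient replicate 4 or any WT library.

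Among transcription factors and coregulators that set muscle identity or fibre type, those abundant enough to be tested had smaller log2 fold changes than the heavy chains, while 2 sparse ones had nearly all their counts in *Piezo1*-deficient bone. Of 11 tested, 1 was called higher and none lower, beside the background of 2.04 and 0.973%, and the median log2 fold change was 0.32. Several were abundant without heavy chain RNA: *Mef2c* and *Mef2d* had 2945 and 1881 counts in WT replicate 3, which held no heavy chain count. Against such levels a small added part could not be seen in the fold change. *Prox1* and *Ppargc1a*, at 0.692 and 0.542 CPM in WT bone, had log2 fold changes of 0.82 and 1.09 and were not called. *Six4*, a homeobox factor of muscle development, was at 12.5 ± 0.359 CPM in *Piezo1*-deficient bone and 9.47 ± 0.650 CPM in WT bone (log2 fold change 0.40, adjusted p = 0.0496, edgeR), a call lost without *Piezo1*-deficient replicate 1, 3 or 4 or WT replicate 3, 4 or 5, with the size factors of DESeq2, with no filter on low counts, and with library sizes without *Col1a1*, *Col1a2* and *Sparc*. The list's count was 3 with the DESeq2 Wald test and 2 with the replicate block. *Myf6*, a myogenic factor of mature fibres, and *Vgll2*, a muscle transcription cofactor, did not pass the filter. *Myf6* had 1, 20, 7 and 2 counts in *Piezo1*-deficient bone and 0, 0, 1 and 0 counts in WT bone. *Vgll2* had 0, 10, 3 and 1 counts in *Piezo1*-deficient bone and none in WT bone. *Pax7*, *Myf5* and *Myod1* were not found by these symbols among the 19201 genes of the count table, so they could not be tested.

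Other myosin heavy chains gave a contrast within the family. *Myh9*, the main non-muscle chain, was at 598 ± 29.0 CPM in *Piezo1*-deficient bone and 688 ± 19.6 CPM in WT bone (SD, n = 4 each), with a log2 fold change of -0.20 and an adjusted p of 0.118 (edgeR). *Myh10*, another non-muscle chain, had a log2 fold change of 0.10 (adjusted p = 0.712, edgeR). *Myh11*, the smooth muscle chain, was called higher, at 33.3 ± 7.74 CPM in *Piezo1*-deficient bone and 16.8 ± 2.0 CPM in WT bone (log2 fold change 0.99, adjusted p = 0.0116, edgeR). *Myh6*, which shares windows with *Myh7*, averaged 0.408 CPM in *Piezo1*-deficient bone and 0.882 CPM in WT bone (log2 fold change -1.07, adjusted p = 0.139, edgeR).

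Markers of other tissues attached to bone also differed between the genotypes, and their part in the heavy chain result was not tested. The background for the counts in these lists was 2.04% of tested genes called higher and 0.973% called lower. Of 11 tested tendon and periosteal fibroblast markers, 6 were called higher, and the list's summed level ran from 4559 to 5891 CPM in *Piezo1*-deficient bone and from 2829 to 3940 CPM in WT bone; *Dcn* and *Postn* had log2 fold changes of 0.52 and 0.84 (adjusted p = 0.00506 and 0.0165, edgeR). Of 7 Schwann cell markers tested, 3 were called higher, with sums of 115 to 206 CPM in *Piezo1*-deficient bone and 89.8 to 99.8 CPM in WT bone. All 13 growth plate chondrocyte markers were called lower, with sums of 496 to 628 CPM in *Piezo1*-deficient bone and 3952 to 7585 CPM in WT bone. Of 6 smooth muscle markers, 4 were called higher, among them *Acta2* at 0.97 and *Tagln* at 1.18 on the log2 scale (adjusted p = 0.0135 and 0.00495, edgeR). Osteoblast and osteocyte markers had counts in all libraries. Of these, 10 of 10 were tested, and 1 (*Bglap*, log2 fold change 0.58, adjusted p = 0.0246, edgeR) was called higher. No marker of any of these lists was at 0 in every library of a genotype. Without single libraries the tendon count was 3 (WT replicate 3, 4 or 5), the Schwann cell count 1 (*Piezo1*-deficient replicate 3 or WT replicate 3, 4 or 5), the smooth muscle count 2 (WT replicate 5) and the osteoblast and osteocyte count 0 (*Piezo1*-deficient replicate 4 or 5 or WT replicate 3, 4 or 5).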

How the data were processed

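Total RNA from cortical bone was sequenced from TruSeq libraries. The authors deposited a table of counts per gene, whole numbers that were not normalized. The study's methods name TopHat 1.4.1 on mm9 and Cufflinks 1.3.0, whereas HISAT2 and GRCm38 appear in the processing notes of the submitters, and the counter, annotation and strand setting are not given in the sources used here. The deposited table also holds the authors' own fold changes and p-values, which were not used. Cuffdiff, which the methods name, cannot be run on counts.

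Counts of 19201 genes were tested in R 4.3.3 with edgeR 4.0.16 (filterByExpr, TMM, quasi-likelihood F test, Benjamini-Hochberg adjustment over 15318 genes, 4 against 4 libraries). The script was tested on simulated counts with the same spread set for every gene. The tested members varied far more between libraries, so that test does not bear on how reliable their calls are. Shares and sparse genes were compared by exact permutation tests in Python 3.11.15 (scipy 1.17.1). The planned share test was 4 against 4, but WT replicate 3 held no count of the 6 genes, leaving 4 against 3. Depth limits the precision of the sparse isoforms most. Members and lists were chosen with earlier results of these data known. Genes named beside the members were, from each list, the 2 called genes of highest mean CPM, *Myh9*, *Myh10* and *Myh11*, *Piezo1*, and the 5 genes most correlated with the summed fast chains and with *Myh7*; other genes were named after their values were seen, and some genes that the rule names are not reported here. Alternatives were DESeq2 1.42.0 (size factors and Wald test), other filters, library sizes without *Col1a1*, *Col1a2* and *Sparc*, a replicate block, each library left out, and replicate 3 of both genotypes left out. Promoter windows came from RefSeq (GRCm38.p6), coding sequence from GENCODE M1 (NCBIM37).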

Additional observations from a re-analysis of the deposited data

Results flagged for a closer look

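In 25 groups of 4 libraries, 3 values stood apart from the rest of their group by Dixon's criterion, which chance meets in about 1 of 20 groups of untied values. The *Myh7* share of *Piezo1*-deficient replicate 1 was 9.06%, against 1.51 to 2.66% in the other *Piezo1*-deficient libraries. The share of fast chains in the same library was 90.4%, against 97.1 to 98.2% in the others, which is largely the same counts seen from the other side. *Myh8* had 0.0648 CPM, a single count, in WT replicate 4 and 0 in the other WT libraries; with the others tied at 0, any single count meets the criterion, so this value carries no weight. No cause was tested for any of them.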

How the results depend on the processing

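The directions of *Myh4*, *Myh1*, *Myh2* and *Myh7* were kept in all 15 alternatives of the gene test; *Myh3* and *Myh8* entered it only with no filter on low counts. The number of members called was 4 in the reported fit and from 1 to 4 with each library left out; without replicate 3 of both genotypes, chosen after seeing the data, it was 1. *Myh7* also lost its call under a filter of a mean of at least 5 CPM (adjusted p = 0.0555, edgeR) and under DESeq2 (0.143). With no filter on low counts, adjusted p from edgeR was 0.0221 for *Myh8* and 0.267 for *Myh3*.

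Genes called higher and lower were 313 and 149, 592 and 358 with DESeq2, 506 and 320 with the replicate block, and 59 and 34 without replicate 3 of both genotypes; with each library left out they ran from 71 to 415 and from 49 to 271. The replicate numbers were not taken to pair the libraries. The deviations of same-numbered libraries correlated at 0.358, -0.223, 0.186 and -0.00304, and those of unlike-numbered libraries at -0.299 to 0.291. The value of 0.358, for replicate 1, was the largest of all pairs, so these values do not settle whether the libraries were paired. The block changed no member's call.

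The mean share difference of *Myh4*, 13.8 percentage points, ran from 0.37 without WT replicate 1 to 24.2 without WT replicate 4. That of *Myh1*, 5.65, ran from -3.97 to 10.6 with each library left out, that of *Myh2*, -2.65, from -7.68 to 3.53, and that of *Myh7*, -14.6, from -23.8 to 0.730; the sign changed without WT replicate 1. That of *Myh8*, 0.138, was -4.30 with 0.5 added to each count, which gives WT replicate 3 shares from added counts alone. Depth limits the WT shares, 1 of which rests on 51 counts.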
